A study of Mus musculus with 9 samples.

Results

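Constant peaks at single gene boundaries are ZEB1 peaks that were present in untreated cells and at every time in eribulin and that sat at the edge of exactly 1 protein-coding gene. They were chosen by the authors' peak calls: a consensus peak had to overlap a region in all 4 deposited peak lists, and its centre had to lie within 1000 bases of the start or end of exactly 1 protein-coding gene of assembly GRCm38. Of the 23623 consensus peaks, 2200 (9.31%) met the rule. They were 26.8% of the 8201 peaks found in every list and 40.7% of the 5405 peaks at exactly 1 gene boundary, and they belonged to 2181 genes.

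The libraries were CUT&RUN with an anti-ZEB1 antibody on PB3 cells, a mouse breast cancer line that the labels describe as negative for the oestrogen, progesterone and HER2 receptors. The groups were untreated control (labelled PB3-Parental) and cells held for 24, 48 or 72 h in 300 nM eribulin (labelled PB3_ERI), with 2 libraries each, and 1 untreated IgG library served the authors as background for peak calling. The comparisons ask how ZEB1 occupancy changed with time in the drug. The labels name a single cell line and do not say whether replicates were separate cultures, so a p-value here reflects library-to-library spread that may be technical. Binding counts give no expression markers by which the labelled cell type could be checked.

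The zinc finger protein ZEB1 is a transcription factor known for driving epithelial-mesenchymal transition. It binds E-box sequences, prototypically CACCTG, at epithelial genes and recruits corepressors, and it can also take part in activation together with YAP and AP-1. In CUT&RUN a nuclease tethered to the antibody releases the DNA around the bound protein, and promoters are open chromatin that such assays recover readily. Eribulin blocks the growth of microtubule ends and thereby halts dividing cells.

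Depth was modest. Counts in all consensus peaks summed to between 326944 and 765015 per library, the median count of a member lay between 20 and 50 in each library, and the lowest count of any member in any library was 4. Levels below are CPM, a count divided by the TMM-scaled total of the library's counts in tested peaks and given per 1000000. Replicates of a group differed by about counting error over the members, with a chi-square per degree of freedom of 0.882 to 1.02, against 0.958 to 2.39 for libraries of different groups.

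The promoters of 8 members are printed here because they are among the rises, falls and highest counts described below. They were taken from RefSeq for build GRCm38.p6, run 5′ to 3′ on the gene's strand from 250 bases before to 50 bases after the annotated start, and lie under the peak. Capitals mark every match, on either strand, of the 9 motifs searched. These were CACCTG (the ZEB-type E2-box), CACGTG (the E-box of MYC and USF factors), TGANTCA (AP-1), TGACGTCA (the cyclic AMP response element), CCAAT (bound by NF-Y), the GC box GGGCGG of SP factors, the ETS letters CCGGAAG, the TEAD letters GGAATG and the TATA box TATAAA. Matches that touch or overlap run together as 1 stretch of capitals. Among the large rises of members at or above the median level of 62.0 CPM were Cc2d1b (chr4:108619706-108620005, + strand), Ero1a (chr14:45318523-45318822, - strand) and Zfp174 (chr16:3846973-3847272, + strand).
Cc2d1b: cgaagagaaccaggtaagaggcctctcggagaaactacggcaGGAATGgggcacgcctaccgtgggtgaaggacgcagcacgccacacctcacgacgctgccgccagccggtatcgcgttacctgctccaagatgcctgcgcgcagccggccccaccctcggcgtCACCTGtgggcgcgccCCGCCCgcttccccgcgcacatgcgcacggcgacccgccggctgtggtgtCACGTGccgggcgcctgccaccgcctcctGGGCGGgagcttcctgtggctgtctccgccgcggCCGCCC
Ero1a: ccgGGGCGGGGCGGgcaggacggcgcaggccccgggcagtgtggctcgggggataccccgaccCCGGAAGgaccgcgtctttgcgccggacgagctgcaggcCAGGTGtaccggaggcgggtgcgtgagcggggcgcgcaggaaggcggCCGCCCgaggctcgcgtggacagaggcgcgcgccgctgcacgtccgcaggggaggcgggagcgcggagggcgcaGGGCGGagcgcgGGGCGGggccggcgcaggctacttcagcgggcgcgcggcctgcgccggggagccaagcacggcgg
Zfp174: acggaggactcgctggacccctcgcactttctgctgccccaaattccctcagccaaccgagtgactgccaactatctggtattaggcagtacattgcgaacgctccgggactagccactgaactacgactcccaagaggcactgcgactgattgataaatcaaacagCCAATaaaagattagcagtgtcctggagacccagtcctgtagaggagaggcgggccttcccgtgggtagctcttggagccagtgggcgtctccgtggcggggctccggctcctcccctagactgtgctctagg
Among the falls at that level were Alyref2 (chr1:171503228-171503527, + strand), H3c6 (chr13:23562336-23562635, - strand) and Jun (chr4:95052173-95052472, - strand).
Alyref2: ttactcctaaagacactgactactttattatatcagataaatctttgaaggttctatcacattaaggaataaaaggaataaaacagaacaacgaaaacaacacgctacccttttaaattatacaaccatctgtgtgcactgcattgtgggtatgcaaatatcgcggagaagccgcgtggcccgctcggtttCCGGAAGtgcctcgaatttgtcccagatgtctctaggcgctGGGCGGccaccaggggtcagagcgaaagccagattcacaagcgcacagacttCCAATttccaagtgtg
H3c6: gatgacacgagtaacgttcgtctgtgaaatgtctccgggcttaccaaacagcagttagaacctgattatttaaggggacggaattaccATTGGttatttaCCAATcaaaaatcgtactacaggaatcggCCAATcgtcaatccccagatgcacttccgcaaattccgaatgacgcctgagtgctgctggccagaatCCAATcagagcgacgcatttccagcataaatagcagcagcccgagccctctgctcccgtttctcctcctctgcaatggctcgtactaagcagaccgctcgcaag
Jun: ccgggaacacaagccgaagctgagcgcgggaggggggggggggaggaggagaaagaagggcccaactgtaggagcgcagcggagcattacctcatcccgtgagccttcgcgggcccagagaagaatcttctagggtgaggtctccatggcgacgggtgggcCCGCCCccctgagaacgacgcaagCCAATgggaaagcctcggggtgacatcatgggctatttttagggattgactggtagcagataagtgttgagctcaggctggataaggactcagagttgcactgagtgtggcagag
Osbp (chr19:11965594-11965893, + strand) and Ercc1 (chr7:19344821-19345120, + strand) had the highest counts among members at a gene start.
Osbp: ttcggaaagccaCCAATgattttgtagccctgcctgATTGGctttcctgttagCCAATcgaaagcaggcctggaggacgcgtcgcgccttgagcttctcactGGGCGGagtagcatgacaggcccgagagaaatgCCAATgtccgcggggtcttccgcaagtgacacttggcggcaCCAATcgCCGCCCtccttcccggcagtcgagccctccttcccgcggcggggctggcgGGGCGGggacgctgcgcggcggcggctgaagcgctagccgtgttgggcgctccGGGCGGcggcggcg
Ercc1: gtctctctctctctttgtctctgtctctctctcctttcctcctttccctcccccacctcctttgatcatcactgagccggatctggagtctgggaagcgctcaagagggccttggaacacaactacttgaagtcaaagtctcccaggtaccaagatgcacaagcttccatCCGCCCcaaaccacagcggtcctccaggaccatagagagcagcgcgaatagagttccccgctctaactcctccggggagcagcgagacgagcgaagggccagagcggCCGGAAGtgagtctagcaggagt
CACCTG was found once each in the Cc2d1b and Ero1a windows. The Ero1a window was 80.3% G or C and held 5 GC boxes, whereas the H3c6 window was 49.7% G or C and held 4 CCAAT boxes and no GC box. A match is a description of the letters and does not show a bound site.

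Nearly every member whose gene strand was known sat at a gene start. Strand came from RefSeq for 1825 members, of which 1759 (96.4%) were at the start and 66 (3.62%) at the end of their gene. Peaks at exactly 1 boundary that were missing from at least 1 list were at the start in 2443 of 2598 cases (94.0%). At gene starts the peak centre lay at a median of -28 bases, so slightly upstream, and 1485 of 1759 peaks (84.4%) covered the annotated start base itself. The centre was within 100 bases of the start in 739 (42.0%), within 250 bases in 1366 (77.7%) and within 500 bases in 1616 (91.9%). At gene ends there was no such centring: the median distance was 513 bases, 39 of 66 centres lay past the end, and only 1 of the 66 was within 250 bases of an annotated start of the same gene.

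**Figure D1:**
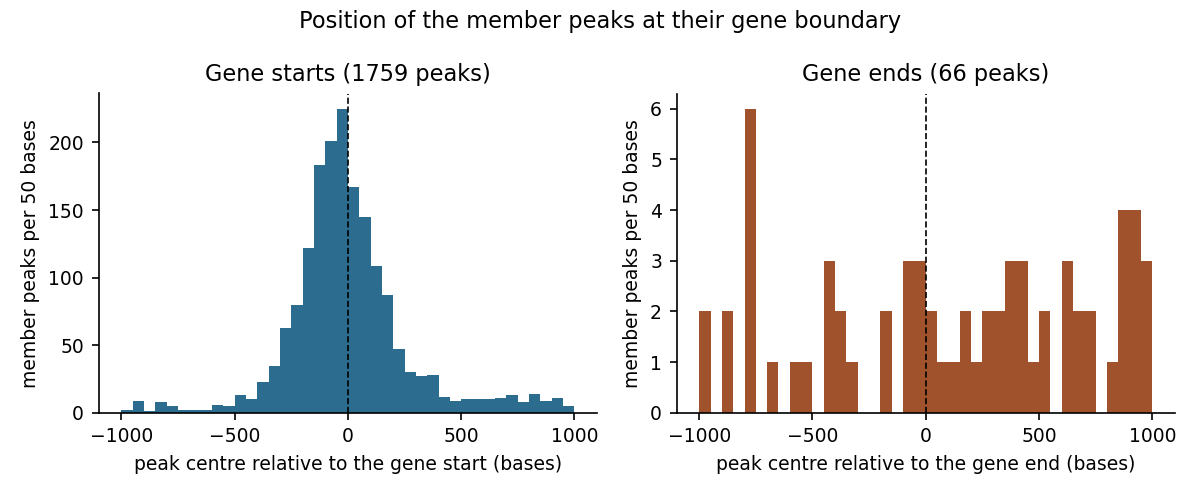
Histogram of the signed distance in bases from the peak centre to the gene start (left, 1759 peaks) or gene end (right, 66 peaks), in steps of 50 bases, where negative values are upstream of the boundary in the direction of transcription. Centres at gene starts gathered around a median of -28 bases, while those at gene ends were spread over the whole window.

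The rule asks for a call in 4 lists, and members were wider and stronger than consensus peaks in general. Their median width was 570.5 bases, against 347 for all consensus peaks, and their median level 62.0 CPM, against 35.5 for all tested peaks. The fold over IgG at the peak, the authors' own value, had a median among members of 8.93 in the control list, 8.09 at 24 h, 11.1 at 48 h and 8.15 at 72 h. Over all peaks of the same lists it was 7.14, 7.43, 8.92 and 6.82. Those lists differ in length and depth, so no order over time was read from them. Just inside the 1000 base limit lay the peaks of Rbm15, at 999.5 bases and 143 CPM, and Iba57, at 995 bases and 62.2 CPM. Just outside it lay peaks near Vim, at 1001.5 bases and 34.4 CPM, and Sspn, at 1013.5 bases and 147 CPM, which are not members.

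The letters of the promoters differed from those of other genes. The window overlapped the peak for 1666 members, and its median G or C share was 63.7%, against 56.3% over the 21263 protein-coding promoters of the table and 52.3% over the 13925 with no consensus peak within 1000 bases. GC boxes were present in 80.4% of members' promoters, 46.2% of all promoters and 32.9% of those with no peak. CCAAT was present in 55.0%, 38.2% and 35.6%, the ETS letters in 18.3%, 11.6% and 6.85%, and CACGTG in 11%, 7.84% and 6.41%, in the same order of sets. The cyclic AMP response element stood in 3.0%, 2.23% and 1.65%. The ZEB-type E2-box CACCTG went the other way, with 15.1% of members' promoters, 19.7% of all promoters and 21.3% of promoters with no peak. TATAAA (5.46%, 12.6% and 16.2%), AP-1 (5.46%, 6.99% and 8.12%) and TEAD letters (11.3%, 13.6% and 14.7%) were likewise less frequent under the members. The sets differ in base composition, which alone shifts how often such letters occur, and its part in these shares was not tested.

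Presence in all 4 lists did not mean a fixed level. The highest group mean of a member was a median of 1.49 times its lowest, and 1115 of 2200 members (50.7%) stayed below a ratio of 1.5. A ratio over 2 was reached by 231 members (10.5%), against 5905 of 21192 tested peaks (27.9%). Counting error alone puts such a ratio above 1, and more so at weaker peaks. The median level was 62.0 CPM for members and 35.5 CPM for all tested peaks, and the part of counting error was not tested. At least 1 of the 5 comparisons called 623 members (28.3%), close to the 5587 of 21192 tested peaks (26.4%), and none called the other 1577. A call means that edgeR's quasi-likelihood F-test gave a p under 0.05 after Benjamini-Hochberg adjustment across the 21192 tested peaks. Since the rule used peak calls from these same libraries, the counts of calls are descriptions, and no test of members against other peaks was made.

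The steadiest strong members were at genes of many kinds. Ptgs2, which encodes the inducible cyclooxygenase COX-2, had 138 and 125 CPM in control libraries, then 142 and 138 CPM after 24 h, 135 and 137 CPM after 48 h and 139 and 125 CPM after 72 h. Eif2ak3, which encodes the unfolded protein sensor PERK, had 160 and 173, 162 and 180, 157 and 174, and 166 and 166 CPM in the same order. Neither showed a difference between groups beyond that between replicates. Gna12 (a G protein alpha subunit), Pa2g4 (a growth-related RNA-binding protein), Pi4k2a (a lipid kinase) and Ppm1b (a protein phosphatase) completed the 6 lowest spreads.

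The highest counts belonged to a peak inside the end of Lars2, the mitochondrial leucyl-tRNA synthetase gene (chr9:123461802-123462208, 670.5 bases before the gene's end). It had 1389 and 1092 CPM in control libraries, then 2135 and 1598 CPM after 24 h, 1549 and 1516 CPM after 48 h and 1902 and 2067 CPM after 72 h. All 6 eribulin libraries were above both controls, with a log2 fold change for the mean of the 3 times of 0.54 ± 0.09 (SE; edgeR adjusted p = 8.91e-06, and 0.082 without control replicate 2). The next were Osbp, which encodes an oxysterol carrier, at a mean of 405 CPM, and Ercc1, a subunit of a DNA repair nuclease, at 361 CPM. Thbs1 (thrombospondin, 320 CPM), Ppm1b (308), Clcf1 (a cytokine, 302), Cic (the capicua repressor, 295) and Map3k12 (a stress kinase, 292) followed, and none of these 7 passed the test for the mean of the 3 times. Scaled by width, the Lars2 peak had 4068.5 CPM per kilobase, against a median of 110 over all members. The highest such value among members at a gene start was 466. In the control list the fold over IgG was 27.4 at the Lars2 peak and 34.4 at Osbp, which had far fewer counts. Whether IgG signal or reads shared with other sites raised the Lars2 counts was not tested.

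As a class, the members took a growing share of the counts in the drug. They held 14.7 and 14.7% of all consensus-peak counts in the control libraries, then 14.8 and 14.9% after 24 h, 16.4 and 15.7% after 48 h and 17.6 and 18% after 72 h. The 2 libraries at 24 h lay beside the controls, and those at 48 and 72 h lay above both. Peaks of every list that lay away from gene boundaries held 39.9 and 39.4% at 72 h, against 41.2 and 42.1% in controls. Members at gene ends held between 0.557 and 0.661% in all 8 libraries with no such order. Library totals were 441521 and 326944 counts at 72 h, against 372896 and 672582 in controls, and the part of depth in this share was not tested. CPM are relative within a library, with no added control DNA used here, so a larger share can be more signal at the members or less elsewhere.

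**Figure D2:**
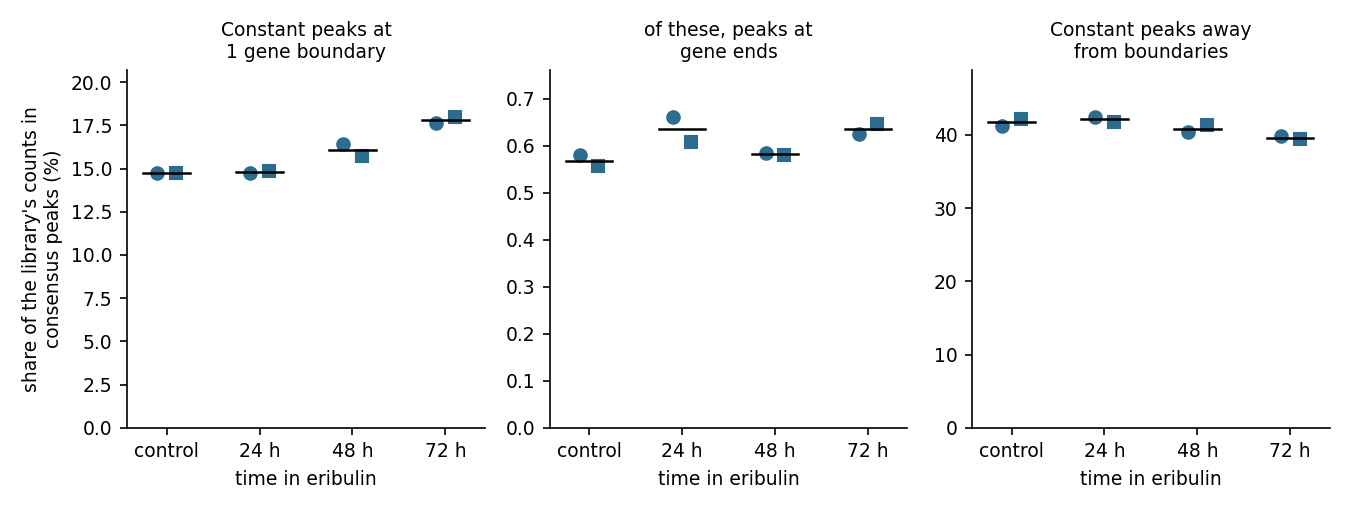
Share of each library's consensus-peak counts (%, axes from 0) in the members, in the members at gene ends and in constant peaks away from boundaries, by group; circles are replicate 1, squares replicate 2 and bars the group mean. The members' share was 17.6 and 18% at 72 h, against 14.7% in both controls, while that of constant peaks away from boundaries was 39.4 to 39.9% at 72 h and 41.2 to 42.1% in controls.

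The group means followed the same course. The highest of the 4 means was at 72 h in 1280 members (58.2%), against 28.3% of all tested peaks, and in controls in 337 (15.3%), against 31.8%. The means rose at every step in 436 members (19.8%) and fell at every step in 24 (1.09%), where the shares over all tested peaks were 8.72% and 8.88%.

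At 24 h against control the members moved in both directions. Higher counts were called at 131 members (5.95%) and lower at 96 (4.36%). These shares were close to the 6.44% higher and 4.61% lower over all tested peaks, and the members' median log2 fold change was 0.03. DESeq2 called 11 of the 1903 members it could adjust, beside 0.97% of all peaks it could adjust. Among the falls that did not last were those at Mex3c, which encodes an RNA-binding ubiquitin ligase, and Gtf2a1, a subunit of the general factor TFIIA. Mex3c had 154 and 139 CPM in control libraries, then 71.6 and 62.8 CPM after 24 h, 105 and 120 CPM after 48 h and 143 and 173 CPM after 72 h. Gtf2a1 had 88.0 and 82.6 CPM in control libraries, then 39.2 and 40.9 CPM after 24 h, 60.9 and 41.1 CPM after 48 h and 87.8 and 97.2 CPM after 72 h. Both were thus low at 24 h and back at the control level at 72 h, with log2 changes at 24 h of -1.11 ± 0.19 for Mex3c and -1.07 ± 0.24 for Gtf2a1 (edgeR adjusted p = 1.45e-05 and 0.0013; DESeq2 0.022 and 0.151). A rise that peaked at 24 h was that of Sdcbp2, the syntenin-2 adaptor gene, with 49.5 and 41.3 CPM in control libraries, then 111 and 101 CPM after 24 h, 59.5 and 65.0 CPM after 48 h and 69.3 and 78.4 CPM after 72 h (1.25 ± 0.23 at 24 h; edgeR adjusted p = 5.28e-05, DESeq2 0.0611). The 227 calls fell to 149 without control replicate 1, 43 without control replicate 2, 126 without 24 h replicate 1 and 87 without 24 h replicate 2.

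At 48 h against control the balance was toward gain. Counts were higher at 190 members and lower at 48, beside 6.09% and 5.41% over all tested peaks, with a median log2 fold change of 0.17. DESeq2 called 8 members, beside 0.784% of the peaks it could adjust. The count of 238 calls fell to 143 without control replicate 1, 43 without control replicate 2, 105 without 48 h replicate 1 and 154 without 48 h replicate 2.

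At 72 h against control nearly all called members were higher. There were 321 higher and 17 lower, beside 6.84% and 5.74% over all tested peaks, and the median log2 fold change was 0.32, with 78.5% of the members above 0. DESeq2 called 18, of which 14 were higher, beside 0.915% of the peaks it could adjust. Among members at or above the median level of 62.0 CPM, Ero1a and Cyb5r1, given below, rose most, and among the falls was Krt8. The count of 338 calls fell to 72 without control replicate 2, 138 without 72 h replicate 1 and 151 without 72 h replicate 2.

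The comparison of 72 h with 24 h uses no control library, and it showed the same lean. Counts were higher at 157 members and lower at 4, beside 2.32% and 2.39% over all tested peaks, with a median log2 fold change of 0.29. DESeq2 called 2, Zdhhc5 and Mex3c, beside 0.0781% of the peaks it could adjust. Zdhhc5, which encodes a palmitoyltransferase, had 121 and 139 CPM in control libraries, then 69.9 and 99.6 CPM after 24 h, 156 and 123 CPM after 48 h and 215 and 194 CPM after 72 h. Both 72 h libraries exceeded the other 6, and the log2 fold change for 72 h against 24 h was 1.25 ± 0.18 (SE; edgeR adjusted p = 4.55e-06). Ankrd11, a chromatin regulator gene, rose by 1.23 ± 0.25 on the log2 scale in edgeR (adjusted p = 0.00125, and 0.078 without 72 h replicate 2). The 4 falls were at Krt8, Snai3, Ercc1 and Pabpn1, at log2 changes between -0.67 and -0.45, and each lost its call without 1 or more of the 24 and 72 h libraries. The count of 161 calls fell to 50 and 41 without 24 h replicate 1 and 2, and to 35 and 33 without 72 h replicate 1 and 2.

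**Figure D3:**
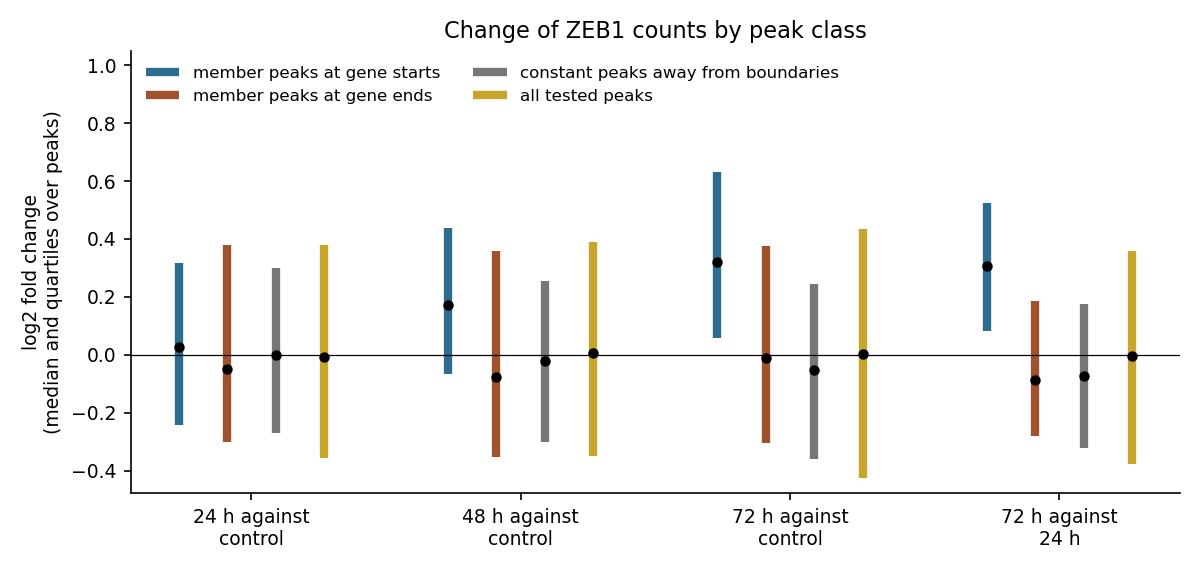
Log2 fold change in 4 comparisons for 4 classes of peaks; dots are the median over peaks and bars run between the quartiles. At gene starts the medians were 0.03, 0.17, 0.32 and 0.30, while at gene ends and in constant peaks away from boundaries all medians lay between -0.09 and 0.00.

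The rise of the medians was seen at gene starts and not at gene ends. Members at gene starts had median log2 fold changes of 0.03 at 24 h, 0.17 at 48 h and 0.32 at 72 h against control, and members at gene ends -0.05, -0.08 and -0.01. At 72 h, 258 of 1759 members at starts (14.7%) were called higher and 8 (0.455%) lower. At ends, 5 of 66 members (7.58%) were called higher and 2 (3.03%) lower. Over all tested peaks the shares were 6.84% higher and 5.74% lower, so the share higher at ends was close to that of all tested peaks. The same course was seen at gene boundaries that are not members: peaks at 1 boundary but missing from some list had a median of 0.43 at 72 h, and constant peaks at the boundaries of 2 or more genes 0.35. Constant peaks away from boundaries had -0.05, with 235 higher (4.36%) and 386 lower (7.17%) of 5386. The differences between classes were not tested.

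The mean of the 3 times against control, with 6 libraries against 2, called 347 members. Of these 291 were higher and 56 lower, beside 8.27% and 8.53% over all tested peaks, and the median log2 fold change was 0.17. DESeq2 called 27, of which 22 were higher, beside 1.63% of the peaks it could adjust. Without control replicate 1 the count was 208, and without control replicate 2 it was 53 (the deeper of the control libraries, with 672582 counts).

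Among members at or above the median level of 62.0 CPM, Cc2d1b, whose product works in endosomal sorting, had the largest rise (chr4:108619641-108620281, centre 20.5 bases into the gene). It had 33.0 and 50.4 CPM in control libraries, then 114 and 112 CPM after 24 h, 106 and 97.5 CPM after 48 h and 129 and 116 CPM after 72 h. Every eribulin library was above both controls, which was a condition for naming these rises. The log2 fold change over the 3 times was 1.35 ± 0.20 (SE; edgeR adjusted p = 2.61e-07; DESeq2 0.00252). Ero1a, which encodes the oxidase that drives disulphide formation in the endoplasmic reticulum (chr14:45318356-45318904, centre 57.5 bases upstream of the start), had 38.5 and 24.5 CPM in control libraries, then 56.3 and 79.1 CPM after 24 h, 64.8 and 66.7 CPM after 48 h and 85.5 and 97.2 CPM after 72 h. All 6 eribulin libraries were above both controls, by the same condition, and its change was 1.33 ± 0.25 (edgeR adjusted p = 3.59e-05, and 0.117 without control replicate 2). Zfp174, a SCAN-domain zinc finger gene (chr16:3846926-3847434, centre 10.5 bases upstream), had 27.5 and 36.7 CPM in control libraries, then 97.2 and 102 CPM after 24 h, 60.9 and 65.0 CPM after 48 h and 80.9 and 84.7 CPM after 72 h. It was highest at 24 h, and its change over the 3 times was 1.26 ± 0.23 (edgeR adjusted p = 3.25e-05; DESeq2 0.0259).

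Larger rises were called at weaker members, for example 1.76 at Kctd3, picked after its value was seen. The other rises among the largest 8 at or above the median level were Tmem241 (1.33), Cystm1 (1.33), Tuft1 (1.24), Cyb5r1 (1.21) and Lrrc8b (1.11), given as log2 fold changes over the 3 times. Tuft1 encodes the enamel-associated protein tuftelin, Cyb5r1 a cytochrome b5 reductase and Lrrc8b a subunit of volume-regulated anion channels. Tuft1 had 77.0 and 58.1 CPM in control libraries, then 174 and 151 CPM after 24 h, 140 and 174 CPM after 48 h and 129 and 166 CPM after 72 h. Cyb5r1 had 57.8 and 33.6 CPM in control libraries, then 66.5 and 81.9 CPM after 24 h, 83.3 and 116 CPM after 48 h and 120 and 141 CPM after 72 h. Tuft1 was thus high from 24 h onward, and Cyb5r1 was highest at 72 h, where its log2 change was 1.61 ± 0.26. The call of Cyb5r1 over the 3 times was lost without control replicate 2 (edgeR adjusted p = 0.133).

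**Figure D4:**
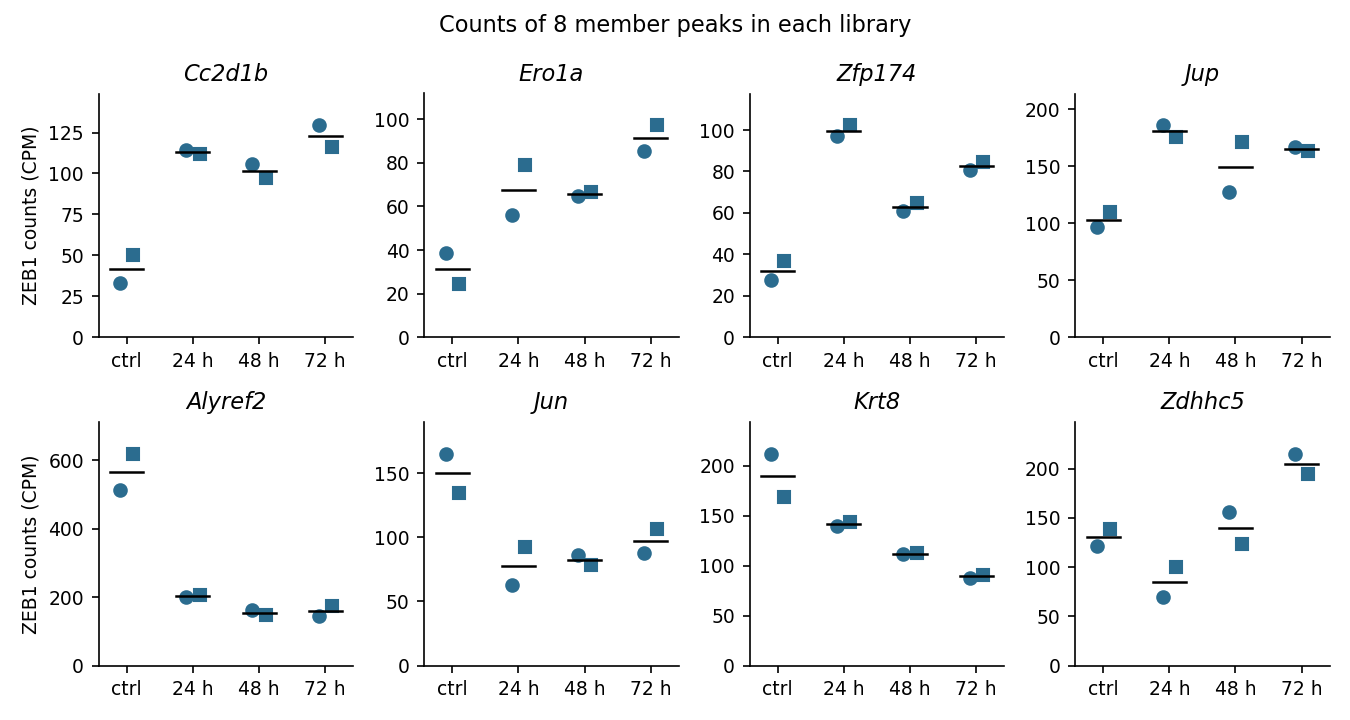
CPM of 8 members in each library by group (axes from 0); circles are replicate 1, squares replicate 2 and bars the group mean. Cc2d1b, Ero1a, Zfp174 and Jup lay above both controls in all 6 eribulin libraries, Alyref2, Jun and Krt8 lay below both controls in all 6, and Zdhhc5 was lowest at 24 h and highest at 72 h. For Cc2d1b, Ero1a, Zfp174, Alyref2 and Jun this separation from the controls was a condition for naming them.

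The largest falls were at 3 genes beside small nuclear RNA genes, which make the RNA parts of the splicing machinery. The Alyref2 peak (chr1:171501297-171503835), at a gene for an mRNA export adaptor, had 514 and 619 CPM in control libraries, then 201 and 207 CPM after 24 h, 161 and 147 CPM after 48 h and 146 and 176 CPM after 72 h. The Rdm1 peak (chr11:101627134-101629045), at a DNA repair gene, had 209 and 216 CPM in control libraries, then 98.9 and 106 CPM after 24 h, 80.7 and 56.5 CPM after 48 h and 80.9 and 75.3 CPM after 72 h. The Sirt4 peak (chr5:115489563-115490993), at a mitochondrial sirtuin gene, had 267 and 252 CPM in control libraries, then 116 and 124 CPM after 24 h, 122 and 111 CPM after 48 h and 143 and 94.1 CPM after 72 h. In all 3 the 6 eribulin libraries lay below both controls, which was a condition for naming these falls. The log2 fold changes over the 3 times were -1.75 ± 0.10, -1.36 ± 0.14 and -1.10 ± 0.13 for Alyref2, Rdm1 and Sirt4 (edgeR adjusted p = 6.05e-31, 6.3e-14 and 1.69e-11; DESeq2 9.04e-22, 2.35e-06 and 4.13e-05). Of the 9 members within 1000 bases of a small nuclear RNA gene, 6 were called lower over the 3 times. The shares called lower were 2.55% over all members and 8.53% over all tested peaks. The 6 were these 3, Poldip3 (-0.80), Gtf3c6 (-0.66) and Tmem259 (-0.46). The other 3 (Grcc10, Ctnnbip1 and Kmt5c) did not pass, at -0.36, -0.21 and -0.09. All 9 estimates were below 0. At an unadjusted p below 0.05, 6 were lower and 0 higher, where all 2200 members had 130 lower and 532 higher. DESeq2 called 4 of the 9 lower, and 5 lower over all members. Small nuclear RNA genes exist in near-identical copies, so reads there may be shared among copies, and the call of Poldip3 was lost without control replicate 2 (edgeR adjusted p = 0.237).

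Falls away from those genes were smaller. Jun, which encodes a subunit of AP-1 (chr4:95051912-95052666, centre 66.5 bases upstream of the start), had 165 and 135 CPM in control libraries, then 63.1 and 92.8 CPM after 24 h, 85.99 and 78.7 CPM after 48 h and 87.8 and 107 CPM after 72 h. H3c6, a core histone H3 gene, had 127 and 119 CPM in control libraries, then 76.7 and 64.1 CPM after 24 h, 52.9 and 73.6 CPM after 48 h and 90.1 and 72.1 CPM after 72 h. For both, all 6 eribulin libraries lay below both controls, again a condition for naming them. The log2 changes were -0.76 ± 0.15 and -0.78 ± 0.17 for Jun and H3c6 in edgeR (adjusted p = 0.000161 and 0.000365), and DESeq2 did not call either (adjusted p = 0.0652 and 0.101). Gm52612 and a peak past the end of Tmem107, a gene of the ciliary transition zone, fell by 0.83 and 0.85 on the log2 scale. DESeq2 called neither.

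Epithelial genes did not move as 1 group. Of 41 listed genes, 6 had a member. Jup, the plakoglobin gene of desmosomes and adherens junctions, had 96.3 and 110 CPM in control libraries, then 186 and 176 CPM after 24 h, 127 and 171 CPM after 48 h and 166 and 163 CPM after 72 h, and F11r, the tight junction gene for JAM-A, had 46.8 and 39.7, 73.3 and 95.5, 59.5 and 90.7, and 62.4 and 62.7. Both were above the controls in all 6 eribulin libraries, with log2 changes of 0.64 ± 0.15 and 0.79 ± 0.23 for Jup and F11r (edgeR adjusted p = 0.00146 and 0.00925; 0.29 for F11r without control replicate 2). DESeq2 called neither over the 3 times (adjusted p = 0.135 for Jup and 0.261 for F11r). Krt8, the keratin of simple epithelia, went the other way, with 212 and 168 CPM in control libraries, then 140 and 143 CPM after 24 h, 111 and 113 CPM after 48 h and 87.8 and 91.0 CPM after 72 h. Its means fell at every step, and at 72 h against control its log2 change was -1.05 ± 0.20 (edgeR adjusted p = 0.000107; DESeq2 0.0375). Its peak is centred 710 bases upstream of the start. Klf5 and Pkp2 did not pass over the 3 times. The list's median was 0.48, beside 0.17 over all members and -0.01 over all tested peaks. Of the polarity genes, Pard6b and Stk11 had a member and neither passed over the 3 times.

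Among 38 mesenchymal genes, 7 had a member, and Fn1, S100a4, Snai1, Snai2, Tcf4 and Thbs1 are described here. Snai2, the gene of the transition factor SLUG, was higher, with 38.5 and 29.0 CPM in control libraries, then 59.7 and 60.0 CPM after 24 h, 39.7 and 42.8 CPM after 48 h and 62.4 and 56.5 CPM after 72 h (0.70 ± 0.25, edgeR adjusted p = 0.0435). That call was lost without any single library, with control replicate 2 giving the highest adjusted p, 0.537. The other 5 named did not pass over the 3 times, and the median of the 7 was -0.10.

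The YAP and AP-1 list had 15 members for 29 genes. In edgeR, Jun and Egr1 were lower over the 3 times, beside 2.55% of all members and 8.53% of all tested peaks. None of the 15 was higher in edgeR, beside 13.2% and 8.27%, nor at an unadjusted p below 0.05. DESeq2 called none of the 15. Egr1 had 209 and 225 CPM in control libraries, then 176 and 145 CPM after 24 h, 172 and 130 CPM after 48 h and 224 and 176 CPM after 72 h, and its change of -0.36 ± 0.13 lost its call without any of 5 libraries. Fos, Fosb, Fosl1, Fosl2, Atf3, Ccn1, Myc, Tead4 and the other 5 did not pass over the 3 times. Fosl1, for example, had 120 and 116 CPM at 72 h, against 99.0 and 107 CPM in controls.

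The list of ZEB1 corepressor and chromatin genes had 6 members, of which Rcor3, a CoREST family gene, was higher over the 3 times at 1.01 ± 0.28 in edgeR (adjusted p = 0.00663, and 0.43 without control replicate 2). Ezh2, the methyltransferase of Polycomb repression, passed at 72 h against 24 h, at 1.2 ± 0.33, with 50.8 and 62.7 CPM at 72 h, against 29.0 and 20.5 at 24 h. In the Wnt list 1 of 9 members was higher, Lrp5, a receptor subunit, with 16.5 and 18.3 CPM in control libraries, then 37.5 and 40.9 CPM after 24 h, 50.3 and 44.5 CPM after 48 h and 46.2 and 69.0 CPM after 72 h. Its change over the 3 times was 1.40 ± 0.31 (edgeR adjusted p = 0.000491, and 0.066 without control replicate 2).

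Apart from the Zfp and histone lists, given below, the remaining lists held few calls over the 3 times, all of them rises. These were Gadd45a among 7 members of the p53 and cell death list, Bst2 among 4 interferon members, Rbm25 among 9 splicing members, Dnajb1 among 13 stress members, and Lars2 and Nars2 among 6 aminoacyl-tRNA synthetases. Leaving out control replicate 2 ended each of these 6 calls, with adjusted p between 0.072 and 0.707. Of 30 marker genes of other cell types, only the muscle creatine kinase gene Ckm had a member, which rose by 1.13 ± 0.33 and sits at the gene's end; that call was lost without control replicate 2 (edgeR adjusted p = 0.408). In 9 lists edgeR called none of 67 members over the 3 times: polarity, SWI/SNF, TGF-beta pathway, microtubules and mitosis, cell cycle drivers, cytosolic and mitochondrial ribosomal proteins, proteasome and respiratory chain. Over the 3 times edgeR called 13.2% of all members higher and 2.55% lower, and 8.27% and 8.53% of all tested peaks. At an unadjusted p below 0.05 the 67 had 8 higher and 2 lower, where all 2200 members had 532 and 130. DESeq2 called none of the 67. Median log2 changes over the 3 times were 0.02 for polarity, 0.10 for SWI/SNF, 0.24 for TGF-beta, 0.26 for microtubules and mitosis, -0.03 for cell cycle drivers, 0.11 and 0.19 for cytosolic and mitochondrial ribosomal proteins, -0.08 for the proteasome and 0.06 for the respiratory chain. In the lists with a call they were 0.25 for corepressors, -0.07 for YAP and AP-1, 0.08 for Wnt, 0.07 for p53 and cell death, 0.26 for interferon, 0.19 for splicing, 0.11 for stress and 0.39 for the synthetases, beside 0.17 over all members.

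Some list members passed late without passing over the 3 times. Rb1, the retinoblastoma gene that restrains entry into S phase, had 38.5 and 27.5 CPM in control libraries, then 35.8 and 24.6 CPM after 24 h, 51.6 and 46.2 CPM after 48 h and 80.9 and 75.3 CPM after 72 h. Both 72 h libraries exceeded the other 6, with a log2 change at 72 h against control of 1.31 ± 0.30 (edgeR adjusted p = 0.00157). Hspa1b, an inducible HSP70 chaperone gene, had 79.8 and 70.3 CPM in control libraries, then 63.1 and 57.3 CPM after 24 h, 79.4 and 73.6 CPM after 48 h and 116 and 122 CPM after 72 h. It too was highest in both 72 h libraries, with a log2 change for 72 h against 24 h of 0.98 ± 0.22 (edgeR adjusted p = 0.00348). DESeq2 called neither Rb1 at 72 h against control nor Hspa1b for 72 h against 24 h. These examples were chosen after their values were seen.

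Over the mean of the 3 times, the Zfp members that passed the test were higher and the histone members that passed were lower. Of 47 Zfp members, 11 were higher and none lower over the 3 times in edgeR, beside 13.2% higher and 2.55% lower over all members and 8.27% and 8.53% over all tested peaks. At an unadjusted p below 0.05, 2 were lower, and DESeq2 called Zfp174 alone. At 24 h against control 1 Zfp member was lower. At 72 h 11 were higher, and the family's median was 0.40, beside 0.32 over all members. Zfp644, for example, had 27.5 and 27.5 CPM in control libraries, then 35.8 and 43.7 CPM after 24 h, 54.2 and 56.5 CPM after 48 h and 69.3 and 87.8 CPM after 72 h. Of 16 members at histone genes, a list added after the falls were seen, 4 were lower over the 3 times (H3c6, H2bc14, H3c11 and H2bc3). None was higher in edgeR, nor at an unadjusted p below 0.05, and DESeq2 called none of the 16. H2bc14 had 275 and 261 CPM in control libraries, then 196 and 175 CPM after 24 h, 172 and 181 CPM after 48 h and 220 and 154 CPM after 72 h. The estimates of 15 of the 16 were below 0, with a median of -0.29. For 72 h against 24 h 1 histone member was higher. Histone genes are short and near-identical in coding sequence, so start and end of such a gene can lie in 1 peak and reads may be shared among copies.

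Members at gene ends also held individual changes. Over the 3 times 9 of 66 (13.6%) were higher and 3 (4.55%) lower, beside 13.2% and 2.55% over all members and 8.27% and 8.53% over all tested peaks. Ltc4s (leukotriene C4 synthase) and A630095N17Rik were higher at every time against control in edgeR, with log2 changes over the 3 times of 1.06 and 1.25. Over the 3 times DESeq2 called 1 of the 66, the Lars2 peak (adjusted p = 0.0158), and so neither Ltc4s nor A630095N17Rik. The Tmem107 peak past the gene's end was lower at every time. Tmem107 was among the 19 genes with 2 members, and its other peak, at the start, was higher over the 3 times (log2 change 1.04, edgeR adjusted p = 0.033). At Otud7b, a deubiquitinase gene, 1 peak was higher over the 3 times (0.84) and the other showed no change beyond its error (0.00). At Per2, a clock gene, 1 peak fell by 0.61 and a neighbour less than 1000 bases away gave 0.09. These examples were picked after their values were seen.

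Promoter letters and the change over time were related in the members, described here with no test because the promoters share libraries and base composition. Split by G or C share, the median log2 change at 72 h against control was 0.24, 0.32, 0.30 and 0.45 from the lowest to the highest quartile. In the same order 40 of 440, 47 of 394, 65 of 418 and 91 of 414 members were called higher, beside 6.84% over all tested peaks. For 72 h against 24 h the medians were 0.19, 0.30, 0.35 and 0.41, and the change correlated with the G or C share at a Pearson r of 0.27 and a Spearman rho of 0.27 over 1666 promoters. At 24 h against control there was no such order, with medians of 0.08, 0.04, -0.02 and 0.01. Members with the ZEB-type E2-box CACCTG in the promoter (251) had a median of 0.20 at 24 h against control, and those without it (1415) -0.01. At 72 h the medians were 0.39 with the box and 0.31 without, and for 72 h against 24 h 0.21 and 0.32. The box was in 22.7% of the promoters of members higher over the 3 times, in 11.4% of the 35 promoters of lower ones and in 14.7% of those in no call. Other motifs also split the members at 72 h against control. Medians with and without the motif were 0.47 and 0.32 for the cyclic AMP response element and 0.42 and 0.31 for the ETS letters. They were 0.41 and 0.31 for CACGTG and 0.33 and 0.26 for the GC box. Medians were lower with the motif for CCAAT (0.29 and 0.37), TEAD (0.27 and 0.33), AP-1 (0.17 and 0.32) and TATAAA (0.12 and 0.33).

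**Figure D5:**
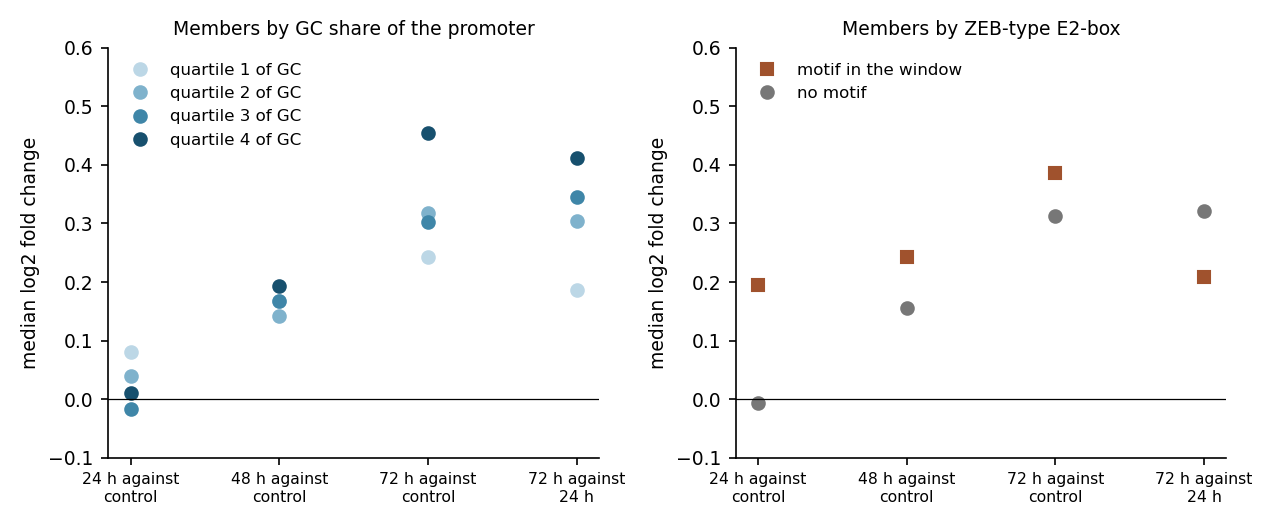
Median log2 fold change of members in 4 comparisons, split by quartile of the promoter's G or C share (left; quartile 4 is the highest) and by presence of CACCTG in the promoter (right). The highest G or C quartile reached 0.45 at 72 h against 0.24 in the lowest, and members with CACCTG stood at 0.20 at 24 h, those without it at -0.01.

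The level of a member and its change were also related. From the weakest to the strongest quartile by mean CPM, the median log2 change at 72 h was 0.49, 0.44, 0.32 and 0.12. The part of peak strength and of base composition in the changes at 72 h was not tested. By chromosome the median change at 72 h ran from 0.17 on the X chromosome to 0.44 on chromosome 14, and it was above 0 on every chromosome that holds members.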

How the data were processed

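Per the labels, CUT&RUN was made with the EpiCypher CUTANA kit. The submitters' processing notes name Bowtie2 2.2.6, MACS2 2.1.1, bedtools 2.30.0 and featureCounts with the mouse build mm10 (GRCm38); their settings are not given in the sources used. The deposited count table holds whole, unscaled counts by the authors for each consensus peak and ZEB1 library. The deposited peak lists are, per the peak names inside them, calls on replicate 1 against IgG; the role of replicate 2 is not stated there. In them the authors give a fold over IgG, a −log10 q and a score for each peak, and the score was not used.

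Counts were tested with edgeR 4.0.16 (filterByExpr by group, TMM, robust quasi-likelihood F-test, all 8 libraries in 1 fit, 4 residual degrees of freedom) in R 4.3.3, with Benjamini-Hochberg adjustment over 21192 tested peaks, which included all 2200 members. DESeq2 1.42.0 was an alternative. Errors of log2 fold changes are standard errors. Overlap meant at least 1 shared base. Gene positions, strand and promoters came from RefSeq tables of GRCm38.p6. The code was tested on simulated data. Same-numbered libraries' deviations correlated between -0.0273 and 0.00148. Replicates differed by about counting error, which could hide a pairing, so these values cannot decide whether replicate numbers pair the libraries. The main fit used no replicate block.

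The named members were eligible when called, at or above the members' median CPM and without overlap between sides; the largest 8 changes each way over the 3 times and the largest 4 each way in the other comparisons were taken, with the highest 8 and steadiest 6 by level. Other passing members of the 22 gene lists are named after their values were seen. The members and lists were chosen with earlier results of these data known. Some members are not reported here.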

Additional observations from a re-analysis of the deposited data

How the results depend on the processing

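Numbers of called members depended on the tool and on depth, and no named value changed direction. DESeq2 called 27 members for the mean of the 3 times, 11 at 24 h, 8 at 48 h, 18 at 72 h and 2 for 72 h against 24 h, where edgeR called 347, 227, 238, 338 and 161. With every library thinned to the smallest total the counts were 149, 85, 64, 178 and 56. Summing the replicates of control, 24 h and 72 h gave 85 for 72 h against 24 h. Leaving out 1 library gave 53 to 340 for the mean of the 3 times, 43 to 242 at 24 h, 43 to 238 at 48 h, 72 to 353 at 72 h and 33 to 177 for 72 h against 24 h. Where at least 50% of the region had to be covered in each list, 1308 peaks met the rule. With a replicate block the counts were 329, 223, 224, 322 and 152; among named values it ended the calls of Snai2 (adjusted p = 0.051) and Dnajb1 (0.056). Over 1488 recomputed named values, 1386 kept their side of the threshold and direction, 100 lost their call, 2 gained one and 0 reversed. Without 48 h replicate 1 the members' median log2 change at 48 h was 0.11. The low counts limit what small changes could be called.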
